A study of Caenorhabditis elegans with 4 samples.

Results

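The lipl genes of Caenorhabditis elegans, lipl-1 to lipl-8, encode a family related to the lysosomal acid lipases of other animals. Members were taken by name: a probe belonged to the family if the platform annotation gave it a single gene and that gene was one of the 8. By this rule 9 of 21632 probes were found, which covered 6 of the 8 genes. No probe was matched to lipl-6 or lipl-8, which are not analysed here. Of the 6 measured genes, lipl-1, lipl-5 and lipl-7 had 2 probes each and lipl-2, lipl-3 and lipl-4 had 1.

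Lysosomal lipases split stored triglycerides and cholesteryl esters in the acidic lumen of the lysosome and release free fatty acids. In C. elegans the main fat store is the intestine, where several lipl genes are known to be induced by fasting, activated by HLH-30, the worm counterpart of the mammalian factor TFEB, and held down in fed animals by the repressor MXL-3. LIPL-4 is known for a signal from lysosome to nucleus that is carried by the lipid-binding protein LBP-8 to the nuclear receptors NHR-49 and NHR-80.

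RNA was prepared 4 times (preps 1 to 4) from L2 larvae, the second larval stage, of wild-type worms, with no treatment or mutation named in the labels. Each prep was hybridised on its own 2-colour array with 1 common reference, a mixed wild-type RNA (the sources used here do not give what was mixed). Separate cultures are not named for the preps, so each p-value covers the spread of these 4 samples alone, and that spread may be technical. RNA of whole animals was measured, so fewer cells of a type and less RNA per cell cannot be told apart. Each value below is a log2 ratio, with the median of all probes on an array set to 0, so that a value of 1 is a 2-fold difference from the reference.

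By the labels, channel 2 held the L2 sample and channel 1 the reference, with no dyes given, so a positive ratio is read as likely higher in L2. Yolk and oocyte or eggshell genes, which an L2 larva is not expected to use, had list medians of -5.42 (3 genes) and -4.03 (13 genes) on this reading. Of 20 genes chosen as intestinal markers 18 were measured, of which 12 were past the threshold as higher and 2 as lower (4.85% and 9.87% of all features), with a median of 1.17. Without preps 1, 2, 3 and 4 the higher ones numbered 6, 7, 12 and 8. This median was 1.55, 1.36, 0.71 and 1.19 in preps 1 to 4. Marker lists of other tissues had medians of 1.48 (body wall muscle), 1.20 (pharynx), 0.20 (hypodermis) and -0.28 (neurons). That of the hypodermis was 0.10 without prep 2 and -0.02 without prep 4. Prep 3 stood apart from the others: over 19153 features its ratios correlated with those of the other preps at r = 0.495 to 0.572, against 0.679 to 0.744 among preps 1, 2 and 4. Precision is limited by the number of arrays, and spot intensities were not used here.

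The 6 measured genes were divided by sign in L2 larvae, but only lipl-5 was past the threshold. The fasting-responsive lipase gene lipl-5 was higher than in the reference in all 4 preps, while the other 5 measured genes were below 0 in all 4, with the probes of a gene averaged. In these averages the lowest value of lipl-5 was 1.01 and the highest value of any other member was -0.12, so lipl-5 overlapped with no other gene. Among single probes 2 readings of the other genes were above 0. Probe 2 of lipl-1 read 0.19 in prep 4, and probe 2 of lipl-7 read 1.36 in prep 2, which is within the range of the lipl-5 probes. Of the 6 genes 1 passed an adjusted p under 0.05 in limma, lipl-5, and 0 passed as lower. Over all 19941 features tested, 14.7% passed, 4.85% as higher and 9.87% as lower. At an unadjusted p under 0.05 in limma, 5 of the 6 genes were lower and lipl-5 was higher, while 18.5% of all features were lower. Values below 0 on all 4 arrays, as in these 5 genes, were seen in 22.7% of the 19153 features with 4 values. The median of the 6 means was -0.57, against 0.01 over all features.

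**Figure D1:**
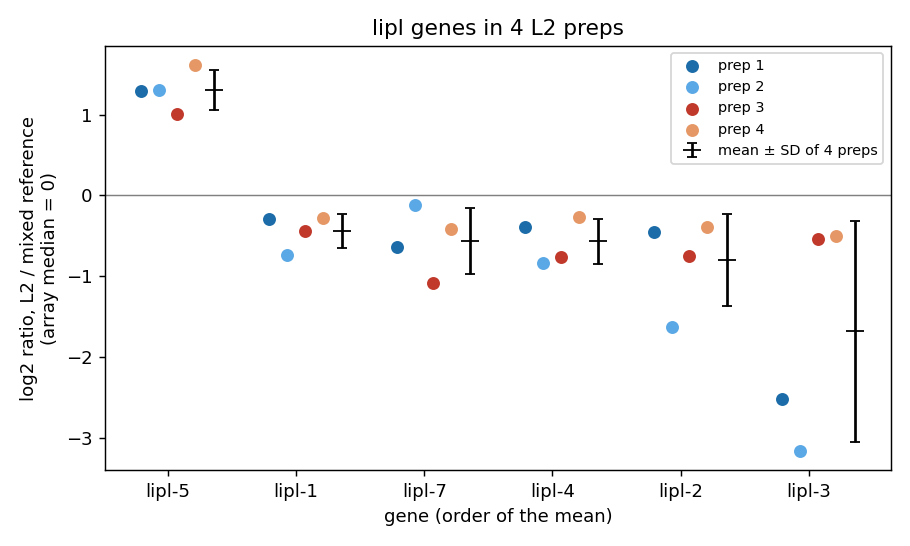
Log2 ratio of L2 over the mixed reference (vertical axis) for the 6 measured lipl genes, ordered by their mean; coloured points are preps 1 to 4 and the black mark is the mean with its SD. With probes averaged, the points of lipl-5 lie between 1.01 and 1.61, all others lie below 0, and lipl-3 splits into values under -2.5 in preps 1 and 2 and values near -0.5 in preps 3 and 4.

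For lipl-5 the log2 ratios were 1.29, 1.31, 1.01 and 1.61 in preps 1 to 4. Without scaling of the arrays these values lay close together, with prep 3 the lowest and prep 4 the highest. After scaling the arrays to equal spread they were 1.25, 1.09, 0.88 and 2.29 (SD 0.63, n = 4), with prep 4 apart. The scaled means were 1.17 in preps 1 and 2 and 1.58 in preps 3 and 4. Unscaled, the mean was 1.30 ± 0.25 (SD, n = 4), or 2.47-fold higher in L2 (95% confidence interval 1.88 to 3.24), with an adjusted p of 0.00467 in limma. A total of 97.9% of features had a lower mean, and 416 had a higher one.

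The pair of lipl-5 probes gave nearly the same result. Probe 1 read 1.26, 1.43, 0.89 and 1.71 in preps 1 to 4, and probe 2 read 1.32, 1.18, 1.13 and 1.52. Their means were 1.32 and 1.29, and in no prep did they differ by more than 0.25. Among 1324 genes with exactly 2 probes on all arrays, the median of the largest difference in any prep was 0.80, and 4.68% had a smaller one than lipl-5. Each probe passed by itself, at adjusted p = 0.00664 and 0.00412 in limma over single probes.

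The call of lipl-5 held without any one prep, with means from 1.20 to 1.40 and adjusted p from 0.00938 to 0.0302 in limma. It ended when the test asked for more than a 1.5-fold difference (adjusted p = 0.0523) and in preps 3 and 4 alone (adjusted p = 0.0783), where the mean was 1.31, against 1.30 in preps 1 and 2.

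The lowest mean of the family was that of lipl-3, another lipase gene induced by fasting. Its single probe read -2.52, -3.17, -0.54 and -0.50 in preps 1 to 4. The values fell into pairs: preps 1 and 2 were far below the reference, at 0.174 and 0.111 of its level, and preps 3 and 4 were at 0.690 and 0.708 of it. The mean was -1.68 ± 1.37 (SD, n = 4), which was not past the threshold. In limma its adjusted p was 0.0617. Of all features, 98.0% had a smaller SD.

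These pairs are also the pairs of arrays whose titles carry the same month, if the numbers that end each title are read as a date. Another code in the titles is shared by preps 2 and 3 only. The mean of lipl-3 was -2.84 in preps 1 and 2 and -0.52 in preps 3 and 4, a difference of -2.33. A difference this far below 0 was found in 0.198% of the 19153 features on all arrays, or 38 features, while 20.6% had preps 1 and 2 both below preps 3 and 4. In preps 1 and 2 alone lipl-3 passed limma with an adjusted p of 0.00887 (12.5% of features passed), and in preps 3 and 4 alone it did not (adjusted p = 0.413, 2.84% of features passed). An exact permutation test of 2 preps against 2 cannot go below p = 0.333, so the difference between the pairs was not tested, and month and prep cannot be told apart. After scaling the arrays to equal spread the pairs were still apart, at -2.54 and -0.59, and lipl-3 then passed over all preps (adjusted p = 0.0464 in limma). It also passed with quantile normalization (adjusted p = 0.0464) and with array weights (adjusted p = 0.0365).

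Without scaling of the arrays, the oocyte and eggshell markers also differed between these pairs of preps, with list medians of -4.66, -5.07, -3.21 and -2.63 in preps 1 to 4. So did the major sperm protein genes, again on unscaled values, at -3.55, -4.13, -2.44 and -2.77. Prep 4 had the narrowest spread, with a median absolute log2 ratio of 0.275, against 0.402, 0.467 and 0.447 in preps 1 to 3. Scaling to equal spread divides each array by a constant of its own. It enlarges the values of prep 4 and shrinks those of preps 1 to 3. The split of these lists is therefore stated for unscaled values only, and their scaled medians were not computed. All 13 of the first list and 28 of 30 of the second were called lower. Their part in the lipl-3 values was not tested. The 3 genes nearest to lipl-3 over the 4 preps, picked out after its values were seen, were W09D6.4, R02F2.4 and F54D10.7, at distances of 0.52 to 0.58 on the log2 scale. For lipl-1, lipl-2, lipl-4, lipl-5 and lipl-7 the nearest gene lay at 0.06 to 0.22.

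**Figure D2:**
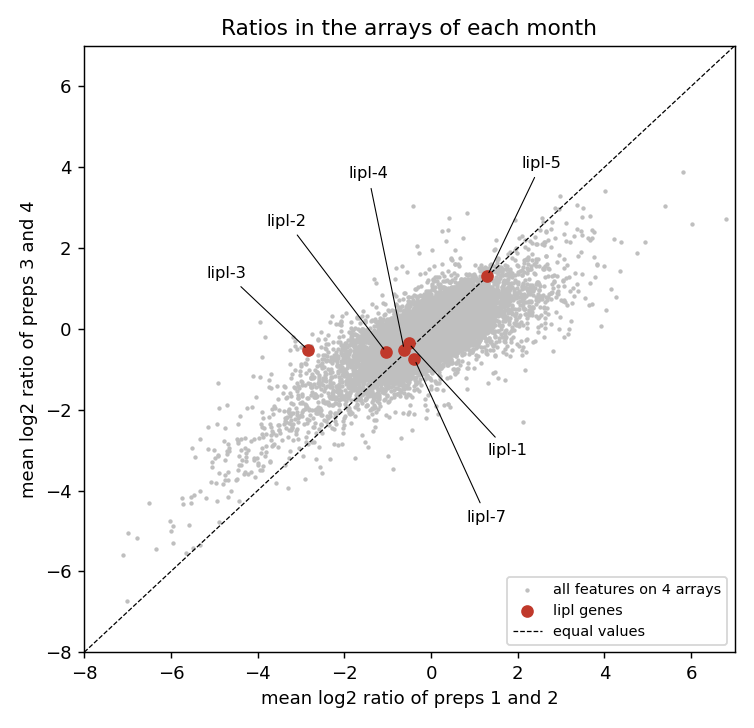
Mean log2 ratio in preps 1 and 2 (horizontal axis) against preps 3 and 4 (vertical axis), the pairs of arrays whose titles share a month when read as a date; grey points are the 19153 features with 4 values, red points are the lipl genes and the dashed line marks equal values. The lipl-3 point lies far left of the line at -2.84 and -0.52, and lipl-5 lies on the line at 1.30 and 1.31. Arrays were not scaled to equal spread here.

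For lipl-2, also known as fasting-induced, the ratios were -0.45, -1.63, -0.75 and -0.39 in preps 1 to 4. Prep 2 was the low one, and the rest lay within a narrow band. The mean was -0.81 ± 0.57 (SD, n = 4), with an adjusted p of 0.0674 in limma, and -0.53 without prep 2. A call was reached with scale normalization (adjusted p = 0.0450), quantile normalization (0.0466) and the month as a random block (0.0460).

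Another member known from fasting was lipl-1, at -0.30, -0.74, -0.44 and -0.28 in preps 1 to 4. All values were modestly below 0, with prep 2 again the lowest, and the mean was -0.44 ± 0.21 (SD, n = 4; adjusted p = 0.109 in limma). Its probes did not read alike. Probe 1 gave -0.37, -1.39, -0.66 and -0.75, and probe 2 gave -0.23, -0.08, -0.22 and 0.19. The mean was -0.79 for probe 1 (adjusted p = 0.0471 in limma over single probes) and -0.09 for probe 2 (adjusted p = 0.734), and the difference of -0.71 was larger than in 85.6% of the genes with 2 probes. Whether this gene is low in L2 therefore depends on the probe that is read.

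The lipase gene of the lysosomal longevity signal, lipl-4, was at -0.40, -0.84, -0.77 and -0.27 in preps 1 to 4. The spread was small, with preps 2 and 3 lower than preps 1 and 4. The mean was -0.57 ± 0.28 (SD, n = 4), or 1.48-fold below the reference, with a 95% confidence interval of the log2 ratio from -0.97 to -0.16. The adjusted p was 0.0693 in limma and 0.0465 with the month as a random block. The estimated correlation within months was -0.13, and the standard error was 0.153 with the block and 0.170 without it.

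The gene lipl-7 was at -0.64, -0.12, -1.09 and -0.41 in preps 1 to 4 as the mean of 2 probes, with a mean of -0.57 ± 0.41 (SD, n = 4; adjusted p = 0.0999 in limma). Prep 2, the lowest for lipl-1, lipl-2, lipl-3 and lipl-4, was here the highest. That value was made of opposite readings: in prep 2 probe 1 read -1.60 and probe 2 read 1.36. In the other preps probe 1 read -0.75, -0.95 and -0.54 and probe 2 read -0.54, -1.22 and -0.29, so there the pair differed by at most 0.26. The gap of 2.95 in prep 2 was larger than the largest gap of 97.6% of the genes with 2 probes. By itself probe 1 was at -0.96 ± 0.46 (adjusted p = 0.0291 in limma over single probes) and probe 2 at -0.17 ± 1.09 (adjusted p = 0.785).

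**Figure D3:**
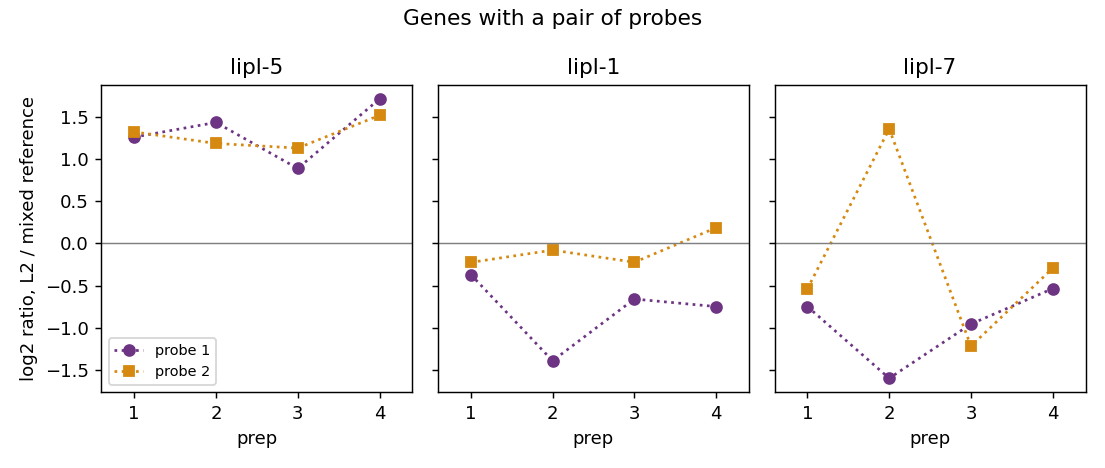
Log2 ratio of L2 over the mixed reference for each probe of the 3 genes with a pair of probes, by prep; the dotted lines only join the values of a probe. The lipl-5 probes lie within 0.25 of each other, the lipl-1 probes are apart by up to 1.31, and the lipl-7 probes part in prep 2 alone, at -1.60 and 1.36.

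Ordered by the mean ratio, the family ran lipl-5, lipl-1, lipl-7, lipl-4, lipl-2 and lipl-3. These are ratios to the same reference and not levels, so the order says nothing of which transcript was more abundant. The step from lipl-5 to lipl-1 was 1.74 ± 0.27 (SD, n = 4) and of 1 sign in 4 of 4 preps. The steps below it were 0.13 ± 0.54, 0.00 ± 0.48, 0.24 ± 0.37 and 0.88 ± 1.10, each smaller than its SD and none with the same sign in all preps. Neighbours were set by the order of these same means, so small steps are built in. They do not show that these genes are alike. In an exact two-sided sign-flip test over 4 preps the first step had p = 0.125, the smallest that 4 preps can give, and 0.625 after Benjamini-Hochberg adjustment over the 5 steps. The other steps had p = 0.25 to 1 in the same exact test.

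The genes whose 4 ratios lay nearest to those of lipl-5 were ears-1 (a glutamyl-tRNA synthetase gene), K04A8.10 and aco-1 (an aconitase gene), at distances of 0.22, 0.30 and 0.30 on the log2 scale over 4 preps, out of 14510 genes compared. Their means were 1.23 ± 0.16, 1.32 ± 0.23 and 1.29 ± 0.39 (SD, n = 4). With 4 arrays such likeness is a description only.

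By the order of genes in the WBcel235 gene table, lipl-5 lies between ZK6.8 and ZK6.6, and both were called higher as well. ZK6.8 was at 2.02, 1.97, 0.50 and 1.09 in preps 1 to 4 (mean 1.40 ± 0.74, adjusted p = 0.0229 in limma) and ZK6.6 at 0.81, 0.46, 1.18 and 0.46 (mean 0.73 ± 0.34, adjusted p = 0.0422). ZK6.8 was not past the threshold if prep 1, 2 or 4 was left out (adjusted p = 0.0939, 0.0975 and 0.0558), and ZK6.6 if any one prep was (adjusted p from 0.0719 to 0.152). Of the 10 tested protein-coding genes next to the 6 lipl genes, 3 were called higher and 0 lower, against 4.85% and 9.87% of all features. The third of those called was tkt-1, a transketolase gene next to lipl-7, at 1.22 ± 0.30 (adjusted p = 0.00694).

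Of 17 listed regulators and signal partners of the lysosomal lipases 16 were tested, 0 were higher and 1 was lower, against 4.85% and 9.87% of all features. Their median was -0.33, and -0.03 without prep 3. The lower one was mxl-1, a Max-like dimerisation partner of bHLH factors, at -1.16, -1.90, -0.94 and -0.82 in preps 1 to 4 (mean -1.20 ± 0.48, adjusted p = 0.0150 in limma). Its call ended without prep 1 (adjusted p = 0.0653), and without prep 3 the list had 2 lower.

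The genes closest to the lipases in the pathway were not called, and prep 3 was the lowest prep for hlh-30, mxl-3, nhr-49, nhr-80 and daf-16. The activator gene hlh-30 was at -0.39, -0.22, -1.03 and -0.10 in preps 1 to 4 (adjusted p = 0.184), and the repressor gene mxl-3 at -0.34, 0.34, -2.0 and -0.97 (adjusted p = 0.207). The hlh-30 values were all below 0, and those of mxl-3 lay on both sides of it. The lipid chaperone gene lbp-8 had 3 values, 0.49, 1.83 and 0.41 in preps 1 to 3 (adjusted p = 0.119). The receptor genes nhr-49 and nhr-80 had means of -0.84 ± 0.76 (adjusted p = 0.0971) and 0.23 ± 0.48 (adjusted p = 0.489), and daf-16, the FOXO factor gene of insulin signalling, -0.89 ± 0.74 (adjusted p = 0.0830), all from limma. The list median was -0.95 in prep 3 and -0.03, -0.03 and -0.10 in preps 1, 2 and 4.

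Another lipase family, the lips genes for class 3 lipases, lay mostly on the other side of the reference. Of 14 tested genes 2 were higher and 0 lower (4.85% and 9.87% of all features), with a median of 0.59, and 4 had a negative mean. By prep the list median was 0.54, 0.55, 0.50 and 0.09 in preps 1 to 4, so prep 4 was near the reference. The higher ones were lips-10, at 1.53, 2.10, 2.21 and 0.43 in preps 1 to 4 (mean 1.57 ± 0.81, adjusted p = 0.0202 in limma), and lips-2, at 0.96, 0.51, 1.38 and 0.62 (mean 0.87 ± 0.39, adjusted p = 0.0302). In lips-10 prep 4 was low, and both genes were above 0 throughout. Neither call held throughout: lips-10 lost its own without prep 1, 2 or 3 (adjusted p = 0.0780, 0.0917 and 0.0580) and lips-2 without any one prep (0.0510 to 0.120). The count was 0, 0, 2 and 1 without preps 1, 2, 3 and 4.

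Lipolysis outside the lysosome held the lowest lipase gene among those listed. It was fil-1, named as a fasting-induced lipase, at -2.35, -3.10, -2.29 and -2.55 in preps 1 to 4. The preps were close to each other, and the mean of -2.57 ± 0.37 (SD, n = 4), or 5.96-fold lower, had an adjusted p of 0.000852 in limma. Of 14 tested genes of cytosolic lipolysis and the lipid droplet 5 fell and 1 rose, against 9.87% and 4.85% of all features. Their median was -0.12, and -0.23 without prep 1 and without prep 2. The droplet coat gene plin-1 was at -1.68 ± 0.62 (adjusted p = 0.00820), and lid-1, a partner of the cytosolic triglyceride lipase ATGL-1, at -0.77 ± 0.15 (adjusted p = 0.0203). The riser was dgat-2, an enzyme of the last step of triglyceride synthesis, at 1.60, 1.71, 0.76 and 1.23 in preps 1 to 4 (mean 1.32 ± 0.43, adjusted p = 0.00865). The gene of the lipase itself, atgl-1, was at 0.62, 0.54, -0.90 and -0.24 (adjusted p = 0.993). The number of falls was 2, 2, 6 and 3 without preps 1, 2, 3 and 4, and lid-1 missed the threshold without prep 1, without prep 2 and without prep 4 (adjusted p = 0.0957, 0.0726 and 0.0890).

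Other parts of the lysosome went in both directions. Of 18 tested subunit genes of the V-ATPase, the pump that acidifies the lysosome, 0 rose and 2 fell, with a median of 0.42. This is near the 9.87% of all features called lower (4.85% were called higher). The median was 0.24 without prep 1 and 0.63 without prep 3. The fallers were vha-18, at -2.24, -2.87, -1.92 and -2.02 in preps 1 to 4 (mean -2.26 ± 0.43, adjusted p = 0.00152 in limma), and vha-7, at -0.92 ± 0.38 (adjusted p = 0.0247), which missed the threshold without prep 1, without prep 2 and without prep 3 (adjusted p = 0.0780, 0.103 and 0.0533). The list median was -0.19 in prep 3, against 0.87, 0.49 and 0.40 in preps 1, 2 and 4. Without prep 3, 5 subunit genes rose and 1 fell, and with array weights, in which prep 3 counts least, 7 rose and 2 fell. The falls were 1, 1 and 2 without preps 1, 2 and 4.

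Of 29 tested genes for other lysosomal hydrolases and membrane proteins 3 rose and 7 fell, against 4.85% and 9.87% of all features. The falls were 5, 5, 7 and 6 without preps 1, 2, 3 and 4. Their median was -0.26 over all tested genes of the list, with -0.41 without prep 1 and -0.14 without prep 3. By prep the list median was 0.04, -0.43, -0.58 and -0.02 in preps 1 to 4, so preps 1 and 4 were near the reference. The gene asp-1 is also an intestinal marker above. The lowest were hex-1, a hexosaminidase gene, at -2.31, -2.43, -2.62 and -1.77 in preps 1 to 4 (mean -2.28 ± 0.36, adjusted p = 0.00122 in limma), and asah-2, a gene of the acid ceramidase family, at -1.66 ± 0.55 (adjusted p = 0.00661). The highest were scav-1, a scavenger receptor gene of the CD36 family, at 1.60, 1.57, 1.36 and 1.29 (mean 1.46 ± 0.15, adjusted p = 0.00246), and gana-1, an alpha-galactosidase gene, at 0.93 ± 0.33 (adjusted p = 0.0197). For gana-1 the threshold was missed with prep 1, prep 2 or prep 4 left out (adjusted p = 0.0950, 0.0849 and 0.0786), and the rises were 1, 1, 3 and 2 without preps 1, 2, 3 and 4.

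Autophagy genes, whose products deliver cargo such as lipid droplets to the lysosome, had 7 of 18 tested members lower and 0 higher (9.87% and 4.85% of all features), with a median of -0.63. The lowest were lgg-2, an LC3 family gene, at -1.24, -1.14, -1.76 and -1.50 in preps 1 to 4 (mean -1.41 ± 0.28, adjusted p = 0.00401 in limma), and epg-4 at -1.15 ± 0.21 (adjusted p = 0.00622). Nearest to 0 among those called were epg-8 at -0.61 ± 0.20 (adjusted p = 0.0462), which lost its call without any one prep (0.0798 to 0.159), and atg-16.2 at -1.05 ± 0.58 (adjusted p = 0.0325), which lost it without prep 2, 3 or 4 (0.127, 0.0830 and 0.0982). The count of lower genes was 4, 4, 4 and 3 without preps 1, 2, 3 and 4.

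**Figure D4:**
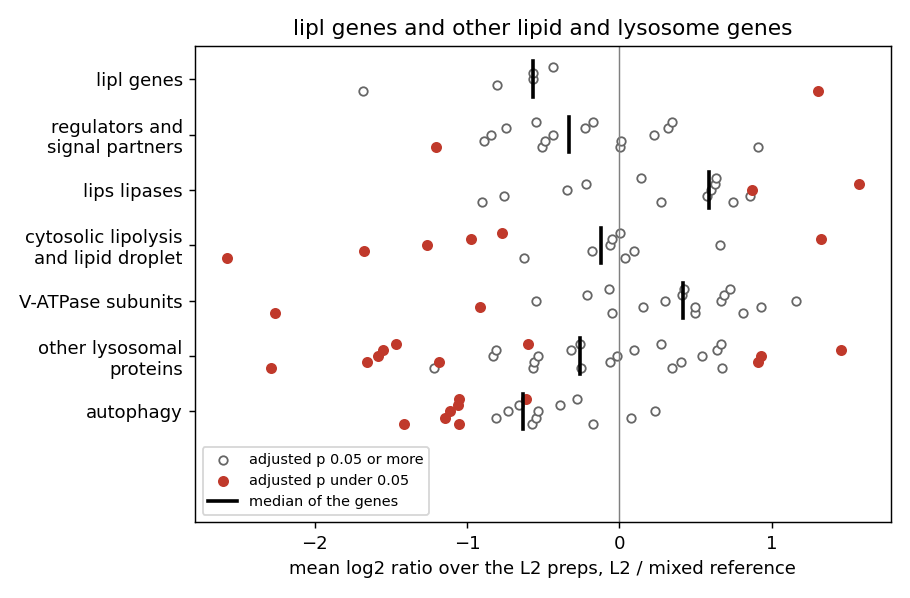
Mean log2 ratio over the L2 preps (horizontal axis) of each tested gene in the lipl family and 6 other lists; filled points had an adjusted p under 0.05 in limma, open points did not, the black bar is the list's median and the vertical offset within a row only separates points. The lipl genes lie left of 0 except lipl-5, and the lips genes have a median of 0.59.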

How the data were processed

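The authors deposited log2 ratios of the channels of each array; base 2 was read from the values, since the ratios below 0.9 that it gives were multiples of 0.001 in 100% of cases on each array, to within 0.05 of that step. Their background correction, normalization, spot filters and dyes are steps not given in the sources used here, so scale and centring before deposit are known from the values alone (medians of 0.0158, 0.0580, 0.0552 and 0.0186 in preps 1 to 4) and direction is likely, not settled. Arrays held 21209 to 21386 values of 21632 probes, of which 16450 had 1 gene name, 247 several and 4935 none; 16360 of the named probes matched the WBcel235 gene table by gene ID, with 0 changed symbols.

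Each array was centred on its median, probes of a gene were averaged, and 19941 features on at least 3 arrays were tested against 0 with limma 3.58.1 (R 4.3.3; lmFit, eBayes, two-sided, Benjamini-Hochberg over all features, threshold 0.05). This leaves out the spread of the reference. The fit was tested on simulated data. Tables and figures used Python 3.11.15, pandas 2.3.3, scipy 1.17.1 and matplotlib 3.10.9. The members and lists were chosen with earlier results of these data known. Named are all lipl genes, the 2 highest and 2 lowest called members of each list, genes of the lipl pathway picked for their role, and the 3 genes nearest by Euclidean distance. Alternatives were other centrings, quantile and scale normalization, weighting of arrays, a robust fit, a fold of 1.5, other array minimums, single probes, a limit of 6 on ratios, the month as a block or alone, and leaving out each prep. Centring within 32 runs of 676 neighbouring probes and testing only features with 1 gene name were chosen after seeing the data.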

Additional observations from a re-analysis of the deposited data

How the results depend on the processing

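No lipl gene changed sign under any alternative tried. The mean of lipl-5 kept its side of the threshold except in the test against a fold of 1.5 (mean 1.30) and in preps 3 and 4 alone (1.31). Genes not called at first were called in some settings: lipl-2 with scale (-0.75) and quantile normalization (-0.73) and with the month as a random block (-0.81), lipl-3 with scale (-1.57) and quantile normalization (-1.50), array weights (-1.77) and in preps 1 and 2 alone (-2.84), lipl-4 with the month as a block (-0.57), and probe 1 of lipl-1 (-0.79) and of lipl-7 (-0.96). The count of lipl genes past the threshold, 1 at first, was thus 3 with scale or quantile normalization, the month as a block or single probes, 2 with array weights or preps 1 and 2 alone, and 0 against a fold of 1.5 or in preps 3 and 4 alone. It was 1 without each prep in turn. The month block had an estimated correlation of -0.13. The cause of these changes was not tested. Without each prep in turn the means ran from -0.49 to -0.34 for lipl-1, -0.94 to -0.53 for lipl-2, -2.07 to -1.19 for lipl-3, -0.67 to -0.48 for lipl-4, 1.20 to 1.40 for lipl-5 and -0.71 to -0.39 for lipl-7. Of 109 genes in the other 6 lists 28 passed (14.7% of all features did), against 45 with array weights, 8 against a fold of 1.5, 7 in preps 3 and 4 alone and 14 to 32 without 1 prep (14 without prep 1, 15 without prep 2). No analysis paired across sample groups was possible because all 4 preps form 1 group. Each ratio already sets an L2 prep against the reference on the same array.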
